A study of Mus musculus with 2 samples.

Results

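The colony-stimulating factors and their receptors were described here in myeloid cells isolated from 4T1 mammary tumors. They were taken by symbol and comprised 7 of the 28692 genes listed for both libraries, namely the ligands Csf1 (M-CSF) and Csf2 (GM-CSF), the M-CSF receptor Csf1r, the GM-CSF receptor alpha chain Csf2ra, the beta chains Csf2rb and Csf2rb2, and the G-CSF receptor Csf3r. M-CSF acts through the receptor tyrosine kinase CSF1R and is known for sustaining monocytes and macrophages. GM-CSF and G-CSF act through cytokine receptors that signal by JAK and STAT proteins, and G-CSF is the main driver of neutrophil production. In mice the beta chain encoded by Csf2rb pairs with the receptors for GM-CSF, IL-3 and IL-5, whereas that encoded by Csf2rb2 serves the IL-3 receptor only.

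The study compared tumors of the 4T1 line, a triple negative breast carcinoma of BALB/c mice. The parental line (4T1p) resists anti-PD1, and a polyclonal line mutagenized with MNNG (4T1m) responds to it. Both were grown in the mammary fat pad of female BALB/c mice and both groups received anti-PD1 for 2 weeks, so no untreated tumor enters the comparison. GR-1+ cells were enriched with magnetic beads and sequenced by 10x 3′ v3 chemistry, with 1 library per tumor type. The tumor type and the library therefore cannot be told apart, no difference was tested, and every interval below is a 95% interval that covers counting error only.

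The files held 1641 barcodes and 9021132 UMIs for the library labelled 4T1p and 2749 barcodes and 14840190 UMIs for the library labelled 4T1m, with 0 barcodes in common. The median was 2066 UMIs per barcode in the first and 2763 in the second. The methods of the study assign these medians the other way round, so a direction between the tumors holds only as far as the file labels do. Barcodes with 250 to 5000 genes, at most 27000 UMIs and no more than 1 mitochondrial UMI in 8 were kept, which left 1128 and 2092 cells. Clusters built without the 7 genes were named from marker genes, and gave 680 monocytic and 251 granulocytic cells in the library labelled 4T1p and 724 and 1023 in that labelled 4T1m. Cluster 9 (63 cells) carried both B cell and T cell markers and is called the lymphocyte cluster. Cluster 0 (479 cells, median 908 UMIs) stayed unnamed because its depth was low and no lineage marker led it.

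The sort label was checked against its genes. Ly6g, 1 of the 2 antigens of GR-1, had a UMI in 12.9% of granulocytic cells and in 61.5% of cluster 8, and Ly6c2, which stands for the other, in 4.99% of monocytic and 3.61% of granulocytic cells. The myeloid integrin gene Itgam had a UMI in 53.0% and 50.3% of the 2 lineages. The leading genes of the monocytic clusters were Thbs1, Vcan and Il6 in cluster 1, Tmem176b and H2-Eb1 in cluster 3, Ccl5 and Cx3cr1 in cluster 5 and the cell cycle genes Birc5 and Top2a in cluster 7. Those of the granulocytic clusters were Mirt1, Hdc and Il1f9 in cluster 2, Ccdc126 and Tnfrsf23 in cluster 4, Slc2a3, Cxcr2 and Retnlg in cluster 6 and the granule genes Camp, Ngp and Ltf in cluster 8.

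Csf1 and its receptor lay in opposite lineages. Csf1 UMIs lay mostly in granulocytic cells (82.9% of 2293), as did those of Csf3r (87.8% of 4035), whereas 94.0% of the 6123 Csf1r UMIs lay in monocytic cells. Csf2ra, Csf2rb and Csf2rb2 were found in both lineages, each at levels that differed by less than 2-fold, and Csf2 was scarce. Levels are given as CPM, the UMIs of a gene per 1000000 UMIs summed over a group of cells.

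**Figure D1:**
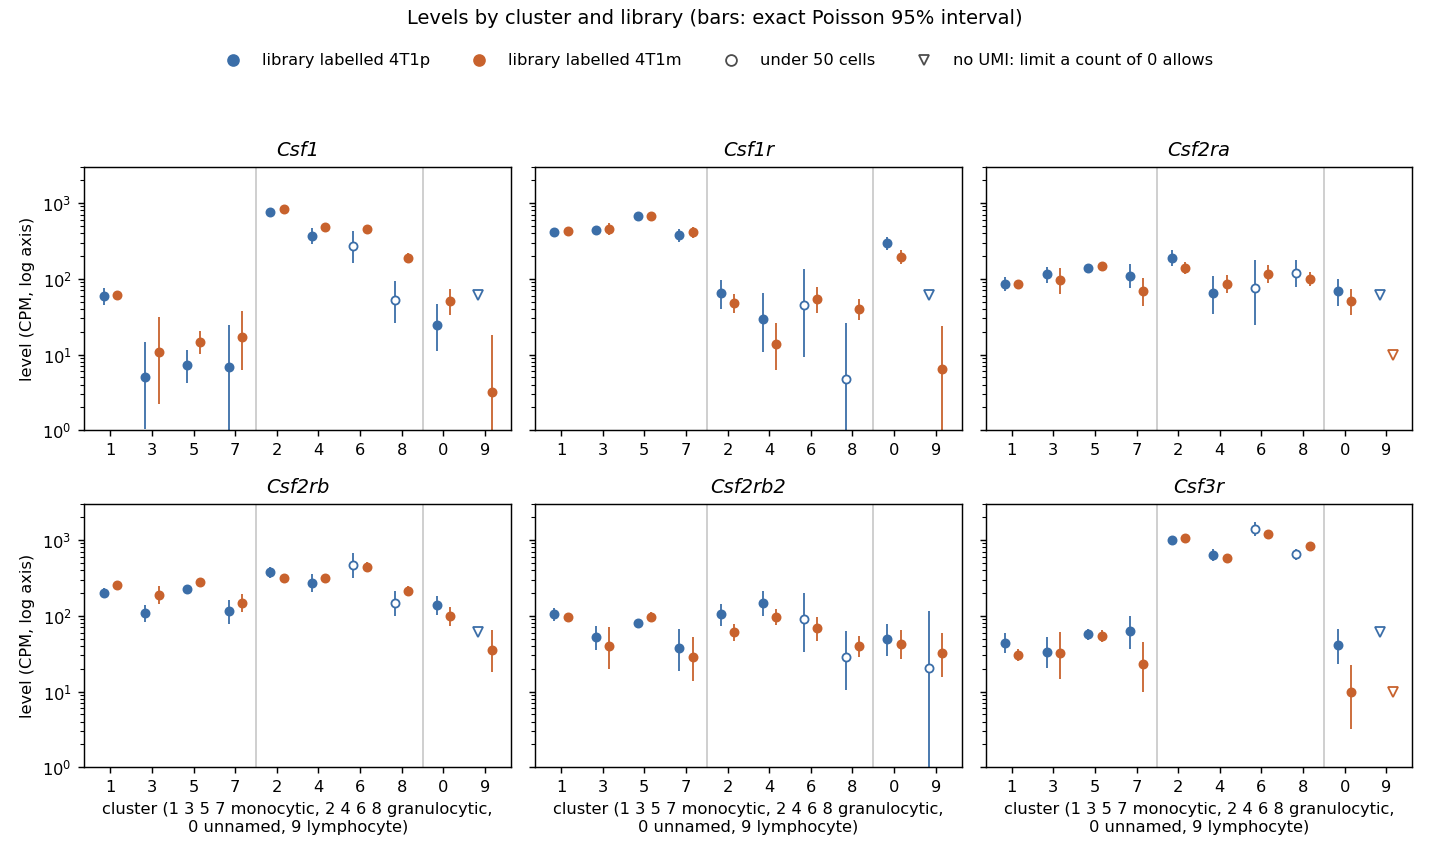
Level of 6 of the genes (CPM, log axis) in each cluster and library; points are summed levels, bars are exact Poisson intervals, open circles are groups under 50 cells and triangles mark the limit that a count of 0 allows. Csf3r is highest in the granulocytic clusters 2, 4, 6 and 8, and Csf1r in the monocytic clusters 1, 3, 5 and 7. Csf1 is highest in the same granulocytic clusters, except that cluster 8 labelled 4T1p (24 cells, 52.2 CPM) overlaps cluster 1 (59.1 CPM). Csf2ra, Csf2rb and Csf2rb2 are spread over both lineages.

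Csf1 (ENSMUSG00000014599) lies on the minus strand at chr3:107741048-107760469 of GRCm38. Granulocytic cells of the library labelled 4T1p held 439 CPM (395 to 487) of it and those labelled 4T1m 488 CPM (464 to 513). In monocytic cells it was 19.5 CPM (15.5 to 24.1) and 40.9 CPM (36.2 to 46.0). The level in monocytic cells was thus 22.6-fold lower (17.7 to 29.0) in the first library and 11.9-fold lower (10.5 to 13.6) in the second, and no interval of 1 lineage overlapped one of the other.

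Within the granulocytic cells Csf1 was graded. Cluster 2 held 751 CPM (662 to 849) in the library labelled 4T1p and 825 CPM (769 to 883) in that labelled 4T1m, and was the highest of all clusters in both. Cluster 4 followed with 368 CPM (290 to 462) and 489 CPM (437 to 545). In the library labelled 4T1m cluster 6 (447 CPM, 389 to 510) overlapped cluster 4, and cluster 8, the cells with granule genes, stood apart below them at 187 CPM (162 to 216). The library labelled 4T1p held only 33 and 24 cells in these last 2 clusters, with 272 CPM (161 to 430) and 52.2 CPM (26.0 to 93.4). A Csf1 UMI was seen in 67.1% of cluster 2 cells, the granulocytic cells led by Mirt1 and Il1f9, and the cells with a UMI held 3.68 of them on average.

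Among monocytic clusters Csf1 was highest in cluster 1, at 59.1 CPM (45.2 to 76.0) in the library labelled 4T1p and 60.8 CPM (53.2 to 69.1) in that labelled 4T1m. In the first, 31 of the 61 UMIs came from 1 cell. Without the cell with the most Csf1 UMIs in each library the levels were 29.2 and 53.6 CPM. Clusters 3, 5 and 7 held between 5.05 and 17.1 CPM in either library, with intervals that overlapped each other. In cluster 1 there were 6.92 and 7.0 Csf1r UMIs per Csf1 UMI in the 2 libraries, that cell included. The ratio was 92.4 and 45.6 in cluster 5, 86.3 and 42.7 in cluster 3, on 3 Csf1 UMIs in each library, and 54.5 and 23.8 in cluster 7, on 2 and 6.

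The low monocytic values were set beside RNA that could come from other cells. In granulocytic cells there were 0.696 Csf1 UMIs per 100 UMIs of S100a8, a granulocytic marker, and in monocytic cells 7.84. By cluster the ranges overlapped, from 0.117 to 2.65 in granulocytic and from 2.07 to 16.7 in monocytic clusters. The value of 16.7 was that of cluster 1, and clusters 3, 5 and 7 held 4.48, 2.07 and 3.25. The granulocytic marker list summed to 844 and 1249 CPM in the monocytic cells of the 2 libraries, with 11 of its 11 genes detected in each, against 173286 and 170081 CPM in granulocytic cells. The 21 kept cells with UMIs of at least 2 of 5 epithelial markers, which 4T1 tumor cells carry, held 5 Csf1 UMIs. The part of such cells or of free RNA in the monocytic level was not tested.

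Csf2 (ENSMUSG00000018916, chr11:54247271-54249667, minus strand) was almost undetected. There were 24 UMIs in 6 kept cells. In monocytic cells 4 UMIs in 4 cells gave 0.234 CPM (0.00594 to 1.31) in the library labelled 4T1p and 0.448 CPM (0.0923 to 1.31) in that labelled 4T1m. Granulocytic cells had 0 UMIs in the library labelled 4T1p, where a count of 0 allows up to 3.64 CPM, and 20 UMIs in that labelled 4T1m, equal to 6.35 CPM (3.88 to 9.81). Of these 20 UMIs, 18 belonged to 1 cell of cluster 2 with 2901 UMIs in all, and the level without that cell was 0.636 CPM. The antisense gene Gm12223 overlaps Csf2.

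The other ligands that use these receptors were scarce too. Csf3 (G-CSF) had 133 UMIs, of which 70 were in 18 monocytic cells and 58 in 23 granulocytic cells, with up to 20 in 1 cell. Its level was 7.50 and 5.67 CPM in the monocytic cells and 9.71 and 15.9 CPM in the granulocytic cells of the libraries labelled 4T1p and 4T1m. Il34, the second ligand of CSF1R, had 4 UMIs, all in cluster 0. Il3 and Il5 had 0 UMIs in the kept cells, which allows up to 0.185 CPM.

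Csf1r (ENSMUSG00000024621) was a monocytic gene in both libraries. Monocytic cells held 553 CPM (531 to 576) in the library labelled 4T1p and 507 CPM (490 to 524) in that labelled 4T1m. In granulocytic cells it was 38.8 CPM (26.6 to 54.8) and 39.1 CPM (32.5 to 46.6), so that the monocytic level was 14.2-fold higher (10.1 to 20.9) and 13.0-fold higher (10.8 to 15.7).

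Of the monocytic clusters, cluster 5 stood above the others with 668 CPM (635 to 702) and 667 CPM (633 to 701). Clusters 3, 1 and 7 followed in this order, between 376 and 457 CPM, and could not be separated by their intervals in either library. The unnamed cluster 0 held 294 CPM (241 to 354) and 195 CPM (158 to 237). Csf1r thus varied less than 2-fold over the clusters named monocytic, cycling cells included. Cluster 0 lay below them, with overlap of cluster 7 in the library labelled 4T1p. Its monocytic markers summed to 16509 and 13268 CPM, against 1218 and 1564 CPM for granulocytic markers.

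A Csf1r UMI was seen in 10.2% (8.60 to 12.0) of granulocytic cells at a median depth of 2534.5 UMIs, against 3.17% (0.387 to 11) of the 63 lymphocyte cluster cells at 4225 UMIs. The intervals of the 2 shares overlapped, at unequal depth. Per UMI the granulocytic level was 38.8 CPM (26.6 to 54.8) in the library labelled 4T1p. In that labelled 4T1m it was 39.1 CPM (32.5 to 46.6), against 6.50 CPM (0.788 to 23.5) in the lymphocyte cluster, without overlap. The 8 lymphocyte cluster cells labelled 4T1p held 0 Csf1r UMIs, which allows up to 61.6 CPM, so the levels there were not separated. Over both libraries the lymphocyte cluster held 5.61 CPM (0.680 to 20.3). Per 100 UMIs of the 15 monocytic markers there were 4.09 Csf1r UMIs in granulocytic and 2.07 in monocytic cells. By cluster the ranges overlapped, from 1.35 to 6.35 in granulocytic and from 1.05 to 3.16 in monocytic clusters. All 15 markers had UMIs in granulocytic cells, with 1118 and 911 CPM in sum against 34398 and 19535 CPM in monocytic cells. The part of free RNA in the granulocytic level of Csf1r was not tested.

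Csf3r (ENSMUSG00000028859, chr4:126024550-126044440, plus strand) mirrored Csf1r. Granulocytic cells held 856 CPM (794 to 921) in the library labelled 4T1p and 902 CPM (869 to 935) in that labelled 4T1m, and monocytic cells 50.9 CPM (44.3 to 58.1) and 37.9 CPM (33.4 to 42.9). The monocytic level was 16.8-fold lower (14.4 to 19.7) and 23.8-fold lower (20.9 to 27.2).

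The order of the granulocytic clusters for Csf3r was not that for Csf1. In the library labelled 4T1m cluster 6 (1181 CPM, 1087 to 1282) and cluster 2 (1049 CPM, 986 to 1115) led and overlapped, cluster 8 followed at 831 CPM (777 to 889) and cluster 4 was lowest at 584 CPM (527 to 646). In the library labelled 4T1p cluster 2 (1008 CPM, 904 to 1120) again exceeded cluster 4 (639 CPM, 534 to 758). The cells with granule genes thus stood closer to cluster 2 in Csf3r than in Csf1, and Csf1 UMIs per Csf3r UMI were 0.205 in cluster 8, 0.353 in cluster 6, 0.770 in cluster 4 and 0.776 in cluster 2.

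Among monocytic cells Csf3r held 57.0 CPM (47.8 to 67.5) and 53.6 CPM (44.5 to 64.1) in cluster 5, and 43.6 CPM (31.8 to 58.4) and 30.4 CPM (25.1 to 36.5) in cluster 1. A UMI was seen in 41.2% of cluster 5 cells at a median depth of 13618 UMIs, against 0 of 63 cells at 4225 UMIs in the lymphocyte cluster, which allows a share of up to 4.76%. With every cell thinned to 1000 UMIs the share in cluster 5 was 5.04%. There were 10.3 Csf3r UMIs per 100 S100a8 UMIs in monocytic and 1.30 in granulocytic cells. The part of free RNA in the monocytic level was not tested.

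Csf1 and Csf3r, which lay mostly in granulocytic cells, can be compared by the sequence before their starts. The bases upstream of Csf1 (RefSeq, GRCm38.p6, chr3:107760470-107760719) and of Csf3r (chr4:126024409-126024549) are given with those of Csf2rb2 (chr15:78305722-78305971), which had UMIs in both lineages. Each runs 5′ to 3′ on the strand of the gene and stops where GENCODE places the transcript, and capitals mark matches to GAGGAA, the core bound by PU.1, or to GCAAT, part of a C/EBP site, on either strand.
Csf1: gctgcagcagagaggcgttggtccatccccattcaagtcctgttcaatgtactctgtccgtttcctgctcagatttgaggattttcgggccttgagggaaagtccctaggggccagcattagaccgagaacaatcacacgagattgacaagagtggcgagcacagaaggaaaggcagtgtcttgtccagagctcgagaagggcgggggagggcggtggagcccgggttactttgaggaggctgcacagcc
Csf3r: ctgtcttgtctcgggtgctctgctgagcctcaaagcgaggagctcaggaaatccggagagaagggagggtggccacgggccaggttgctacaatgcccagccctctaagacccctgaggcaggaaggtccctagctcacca
Csf2rb2: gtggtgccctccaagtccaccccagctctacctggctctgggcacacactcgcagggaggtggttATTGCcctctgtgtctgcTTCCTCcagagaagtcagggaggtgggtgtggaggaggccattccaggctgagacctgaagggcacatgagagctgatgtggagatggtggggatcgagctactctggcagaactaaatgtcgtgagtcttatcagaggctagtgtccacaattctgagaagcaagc
The Csf2rb2 stretch held 1 match to each motif, and those printed for Csf1 and Csf3r held 0. The stretch before Csf2ra, which also had UMIs in both lineages, is not printed and held 0 too. Its 250-base RefSeq window held 2 matches to GAGGAA and 0 to GCAAT. No such sequence was compared for Csf1r, the mostly monocytic member, or for Csf2rb. With so few genes the matches cannot be related to lineage. The 250-base RefSeq window of Csf3r held 1 match to each, inside the part that GENCODE counts as transcribed and that is not printed. Of all 32851 RefSeq windows of 250 bases, 23.3% held GAGGAA and 23.1% held GCAAT. The AP-1 motif TGANTCA, in 6.75% of windows, had 0 matches in the windows of Csf1, Csf3r, Csf2rb2 and Csf2ra. A match is a description of these letters only.

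**Figure D2:**
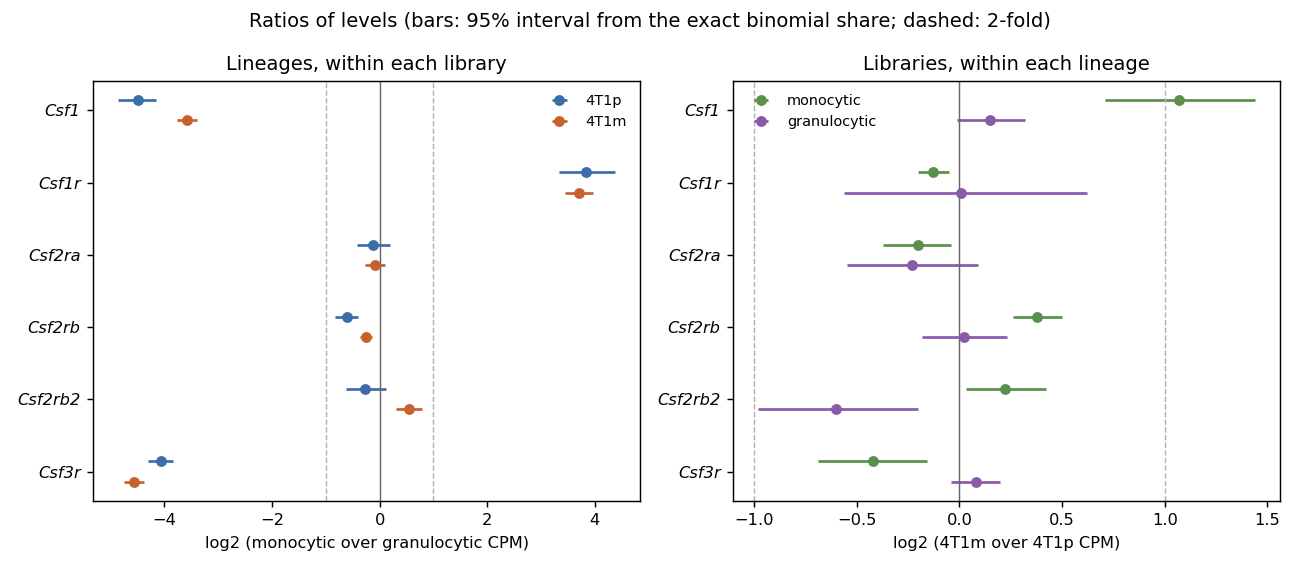
Log2 ratio of levels for 6 genes, monocytic over granulocytic cells within each library (left) and 4T1m over 4T1p within each lineage (right); bars are intervals from the exact binomial share and dashed lines mark 2-fold. Csf1 and Csf3r lie far to the left of 0 and Csf1r far to the right in both libraries, and in the right panel only monocytic Csf1 passes 2-fold, at 1.07.

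The lineage differences were counted with a limit of 2-fold, for every gene that summed to 200 UMIs or more over both groups compared. Of the 6 members that reached 200 UMIs (Csf2 did not), 1 was higher in monocytic cells and 2 were lower, in each library. Over all genes tested, 45.6% were higher and 13.3% lower in the library labelled 4T1p, and 47.3% higher and 11.2% lower in that labelled 4T1m, so the count of higher members was under the background and that of lower members over it, which in 6 genes is a description only. The median log2 ratio was -0.44 and -0.17 over the members, against 0.78 and 0.89 over all genes tested.

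Csf2ra (ENSMUSG00000059326, chr19:61223957-61228429, minus strand), the chain specific to GM-CSF, did not separate the lineages with the totals used here. Its level was 121 CPM (111 to 132) in monocytic and 131 CPM (108 to 158) in granulocytic cells of the library labelled 4T1p, and 105 CPM (97.4 to 113) and 111 CPM (100 to 124) in that labelled 4T1m. The log2 ratio of monocytic over granulocytic cells was -0.12 (-0.42 to 0.20) and -0.09 (-0.27 to 0.10). The upper limit of its excess in granulocytic cells was thus 1.34-fold and 1.21-fold, for counting error only. Totals without the 20 most abundant genes of each lineage moved the median lineage ratio of all genes by -0.41 and -0.43. A change of totals moves every gene alike, so Csf2ra would then pass both limits.

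Within each lineage Csf2ra was uneven. Cluster 2 was highest in the library labelled 4T1p (189 CPM, 146 to 241) and cluster 5 in that labelled 4T1m (146 CPM, 131 to 162), and the 2 clusters overlapped in both. The level in cluster 4, the granulocytic cells led by Ccdc126, was 63.9 CPM (34.0 to 109) and 85.2 CPM (64.4 to 111), below cluster 2 without overlap in both libraries. Cluster 1 held 86.3 CPM (69.3 to 106) and 84.9 CPM (75.9 to 94.7), below cluster 5 (139 CPM, 124 to 155, and 146 CPM, 131 to 162) in both.

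Csf2rb (ENSMUSG00000071713) lies on the plus strand at chr15:78325752-78353847 and Csf2rb2 (ENSMUSG00000071714) on the minus strand at chr15:78282507-78305721, with 20030 bases between them. Of all 50-base words of the longest Csf2rb transcript, 18.4% also occur in that of Csf2rb2, but 0 of the 451 words in its last 500 bases do, where 3′ reads fall. The 2 genes can be told apart there, and reads from shared stretches may be lost to both.

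Summed over each lineage, Csf2rb was higher in granulocytic cells by a small margin. It held 299 CPM (262 to 338) and 303 CPM (284 to 323) there, against 195 CPM (182 to 209) and 254 CPM (242 to 267) in monocytic cells. The log2 ratio of monocytic over granulocytic cells was -0.61 (-0.82 to -0.40) in the library labelled 4T1p and -0.25 (-0.37 to -0.14) in that labelled 4T1m, both short of 2-fold. With every cell given the same weight it was -1.51 in the first library, past 2-fold. Totals without the 20 most abundant genes of each lineage moved the ratios of that library by -0.41, which also takes Csf2rb past 2-fold. Clusters 2 and 4 held 376 and 270 CPM in the first library and 316 and 315 CPM in the second, where cluster 6 was highest of all with 444 CPM (387 to 508). Clusters 3 and 7 were the lowest of both lineages, between 108 and 189 CPM. The monocytic clusters 5 and 1 held 224 and 202 CPM in the first library. In the second they held 281 CPM (260 to 304) and 253 CPM (237 to 269). There the granulocytic cluster 8 held 215 CPM (188 to 246), below cluster 5 without overlap, so the order of the lineages did not hold for every cluster.

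With the totals used here, Csf2rb2 was higher in monocytic cells in 1 library only. It held 78.5 CPM (70.4 to 87.4) in monocytic and 94.7 CPM (74.8 to 118) in granulocytic cells of the library labelled 4T1p. On the log2 scale the ratio was -0.27 (-0.63 to 0.11), and -1.16 with every cell given the same weight. In that labelled 4T1m the levels were 91.5 CPM (84.4 to 99.0) and 62.6 CPM (54.1 to 71.9), which differ by 0.55 (0.31 to 0.79) on that scale. Totals without the 20 most abundant genes of each lineage moved the lineage ratios of this library by -0.43, so the interval would then include equal levels. Cluster 4 was the highest granulocytic cluster in both libraries, at 147 CPM (99.4 to 210) and 97.4 CPM (75.0 to 124), with intervals that overlapped the next.

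Csf2rb2 made up a minority of the beta-chain UMIs in every named cluster of the 2 lineages. Its share was 28.7% (26.1 to 31.4) and 26.4% (24.7 to 28.3) in monocytic cells, and 24.1% (19.5 to 29.1) and 17.1% (15.0 to 19.4) in granulocytic cells of the libraries labelled 4T1p and 4T1m. The share was lower in granulocytic cells of the library labelled 4T1m without overlap of intervals, and overlapped in that labelled 4T1p. Among granulocytic clusters, over both libraries, it was 26.4% (21.9 to 31.3) in cluster 4 and 13.6% (9.88 to 18.2) in cluster 6. The share compares UMIs of 2 genes that may be captured unequally, so it is read between groups and not as a ratio of proteins.

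An alpha and a beta chain could be seen in the same cell. A UMI of Csf2ra together with one of Csf2rb or Csf2rb2 was found in 32.2% (29.8 to 34.7) of monocytic and 17.2% (15.2 to 19.4) of granulocytic cells. These shares include Csf2rb2, which serves the IL-3 receptor only, so they are not shares of GM-CSF receptor pairs. Csf2ra with Csf2rb was not counted by itself. Csf1 and its receptor were found together in 8.55% (7.14 to 10.1) of monocytic cells, where 120 of the 138 cells with a Csf1 UMI also had one of Csf1r. In granulocytic cells it was 5.73% (4.52 to 7.15), or 73 of the 589 cells with a Csf1 UMI. Csf1 and Csf3r shared 37.4% (34.7 to 40.1) of granulocytic cells, where Csf1 had a UMI in 46.2% of cells and Csf3r in 76.8%. Csf1r had one in 65.4% of monocytic and 10.2% of granulocytic cells. The shares of cells with both genes depend on depth, with median UMIs of 4637 and 2534.5 in the 2 lineages. They were not compared with the shares expected from each gene by itself.

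**Figure D3:**
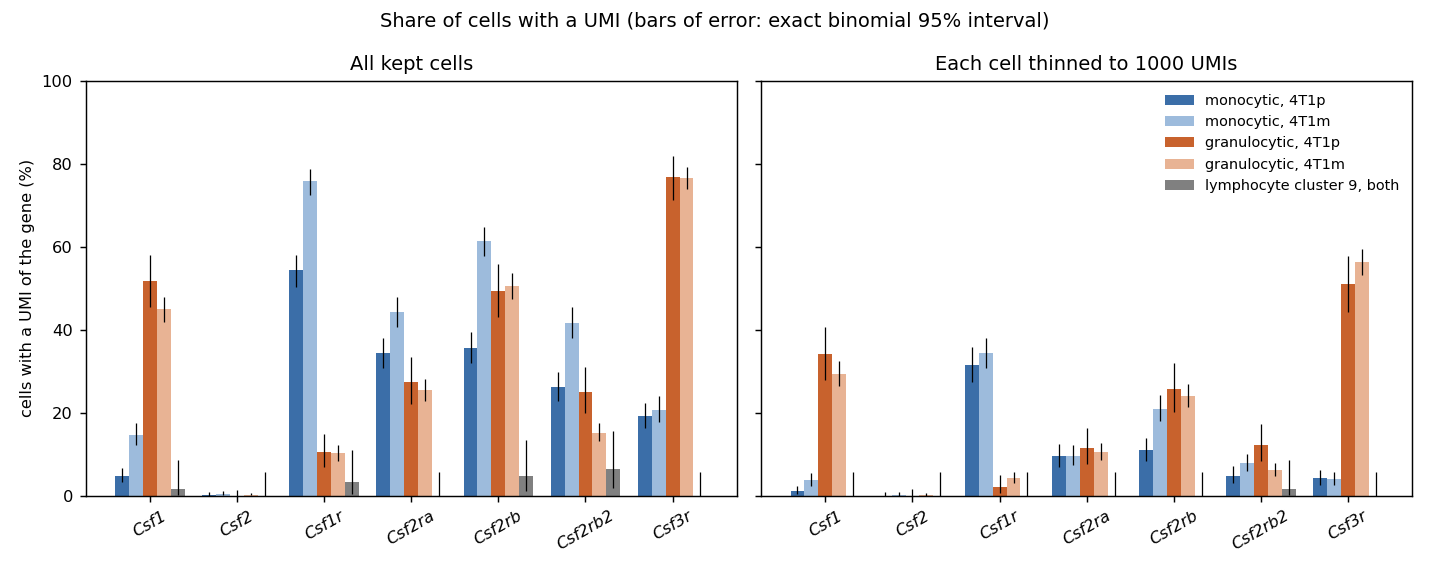
Percent of cells with a UMI of each gene, in all kept cells (left) and with each cell thinned to 1000 UMIs (right), by lineage and library and in the lymphocyte cluster; error bars are exact binomial intervals. Csf1r reaches 54.3% and 75.8% of monocytic cells and Csf3r 76.9% and 76.7% of granulocytic cells, and after thinning the monocytic bars of Csf1r are 31.5% and 34.3%.

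Depth mattered for the order of shares. Csf2rb2 had a UMI in 34.2% (31.7 to 36.7) of monocytic and 17.2% (15.2 to 19.4) of granulocytic cells, and after thinning to 1000 UMIs in 6.46% (5.11 to 8.05) and 7.36% (5.93 to 9.01). Csf2ra went from 39.5% and 25.8% to 9.52% (7.88 to 11.4) and 10.7% (8.98 to 12.6). Csf1r kept its order, at 33.1% (30.4 to 35.9) against 3.76% (2.75 to 5.02), as did Csf3r at 4.02% (2.96 to 5.32) against 55.3% (52.4 to 58.2) and Csf1 at 2.53% (1.70 to 3.62) against 30.3% (27.7 to 33.0). Thinning left out 259 monocytic and 105 granulocytic cells under 1000 UMIs. In the lymphocyte cluster the unthinned shares were 1.59% for Csf1, 0% for Csf2ra and Csf3r, 4.76% for Csf2rb and 6.35% for Csf2rb2.

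Between the libraries the members differed little. Of the 6 tested in monocytic cells 1 was at least 2-fold higher in the library labelled 4T1m and 0 were lower, where 7.16% and 1.41% of all genes tested were (8.57% in either direction). Of the 5 tested in granulocytic cells 0 passed in either direction, where 5.12% and 2.51% of all genes did (7.63% in either). The medians of the members were 0.05 and 0.02 on the log2 scale, against 0.15 and 0.08 over all genes tested. Among 6 members, 1 past the limit is no result about the list.

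The member past 2-fold was Csf1 in monocytic cells, at 40.9 CPM in the library labelled 4T1m against 19.5 CPM in that labelled 4T1p, a ratio of 2.10 (1.64 to 2.72). The 2 libraries filled the lineage with different clusters. Cluster 1, the monocytic cluster with the most Csf1, made up 47.0% of the monocytic cells and 56.9% of their UMIs in the library labelled 4T1m but 14.3% and 24.2% in that labelled 4T1p, whose most frequent cluster was cluster 3 with 44.0%. Within cluster 1 the ratio was 1.03 (log2 0.04, -0.37 to 0.47), but 31 of the 61 UMIs labelled 4T1p lay in 1 cell. Without the cell with the most Csf1 UMIs in each library, an alternative chosen after seeing the data, it was 1.84 (log2 0.88, 0.32 to 1.48). Within cluster 5 it was 2.02 (log2 1.02, 0.13 to 1.95) on 33 and 17 UMIs. With clusters 1, 3, 5 and 7 given equal weight the ratio was 1.32, short of 2-fold, as was the log2 ratio of 0.60 at a limit of 5% mitochondrial UMIs, and without the cell with the most Csf1 UMIs in each group it was 3.01. The median depth was 2023 UMIs in monocytic cells labelled 4T1p and 8799 in those labelled 4T1m, and the part of depth or of cluster makeup in this difference was not tested. In granulocytic cells the log2 ratio of Csf1 was 0.15 (-0.01 to 0.32), with 0.13 (-0.07 to 0.34) in cluster 2 and 0.41 (0.04 to 0.79) in cluster 4. Clusters 6 and 8, with only 33 and 24 cells labelled 4T1p, held 272 and 52.2 CPM there against 447 and 187 CPM labelled 4T1m, without overlap in cluster 8. Cluster 2, with the most Csf1, held 41.7% of the granulocytic UMIs labelled 4T1p and 31.1% of those labelled 4T1m. The part of cluster makeup was not tested here either.

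Csf2rb was higher in each monocytic cluster of the library labelled 4T1m. Over the lineage it was 1.30-fold higher, a log2 ratio of 0.38 (0.26 to 0.50), and within clusters the ratio on that scale was 0.33 (0.11 to 0.55) in cluster 1, 0.81 (0.26 to 1.36) in cluster 3, 0.33 (0.16 to 0.50) in cluster 5 and 0.38 (-0.27 to 1.06) in cluster 7. Only in cluster 7 did the interval include 0. In granulocytic cells the log2 ratio was 0.02 (-0.18 to 0.23). The median over all genes tested in monocytic cells was 0.15.

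Csf2rb2 had the opposite sign in the 2 lineages, each taken as a whole. It was 1.51-fold lower (1.15 to 1.98) in the granulocytic cells of the library labelled 4T1m, with log2 ratios of -0.80 (-1.42 to -0.16) in cluster 2 and -0.60 (-1.24 to 0.08) in cluster 4. In monocytic cells it was 1.16-fold higher (1.02 to 1.33), and with the 4 clusters at equal weight it was 1.04-fold lower. Of the monocytic clusters only cluster 5 lay above 0, with a log2 ratio of 0.30 (0.01 to 0.59). Clusters 1, 3 and 7 held -0.09 (-0.40 to 0.23), -0.41 (-1.55 to 0.62) and -0.41 (-1.80 to 0.97). Csf3r in monocytic cells was 1.34-fold lower (1.11 to 1.62) in the library labelled 4T1m. Within clusters 1, 3 and 5 its interval included 0. In cluster 7 the log2 ratio was -1.44 (-2.85 to -0.17) on 8 and 18 UMIs. Without the cell with the most Csf3r UMIs in each library it was -1.39 (-3.54 to 0.45) there. Csf1r and Csf2ra were 1.09-fold (1.04 to 1.15) and 1.15-fold (1.03 to 1.29) lower in the monocytic cells of the library labelled 4T1m. Within each of clusters 1, 3, 5 and 7 the intervals of Csf1r and Csf2ra included 0.

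**Figure D4:**
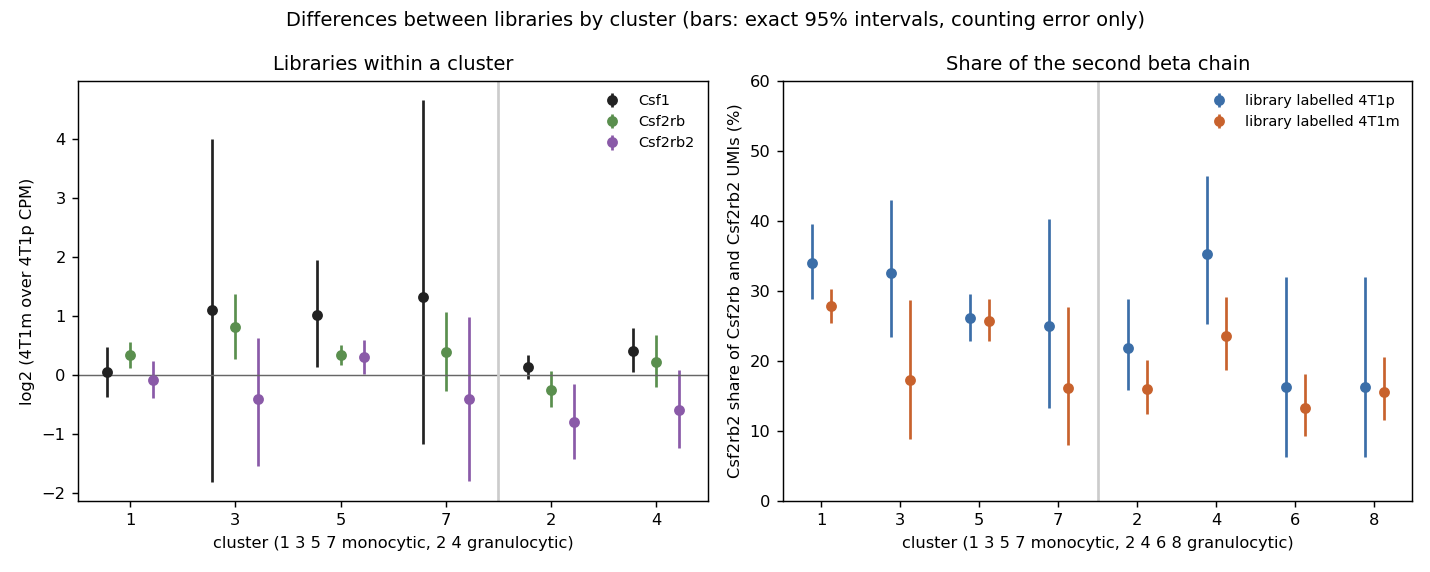
Left, log2 ratio of 4T1m over 4T1p for Csf1, Csf2rb and Csf2rb2 within each cluster that had at least 50 cells in both libraries; right, percent of beta-chain UMIs that were Csf2rb2, by cluster and library; bars are exact intervals. Csf2rb lies above 0 in clusters 1, 3 and 5, Csf1 lies at 0.04 in cluster 1, where 1 cell holds 31 of the 61 UMIs labelled 4T1p and the value without the top cell of each library is 0.88, and the Csf2rb2 share is highest in cluster 4 among granulocytic clusters.

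Other genes of these pathways were taken from a list of 41 ligands, receptors, signaling proteins and transcription factors. Of the 25 with at least 200 UMIs in the library labelled 4T1p, 7 were at least 2-fold higher and 5 lower in monocytic cells, and of 31 in that labelled 4T1m 9 were higher and 3 lower. Of all genes tested, 45.6% were higher and 13.3% lower in the first library and 47.3% and 11.2% in the second, so the counts of higher genes lay below the background share. The medians were -0.08 and -0.04, against 0.78 and 0.89 over all genes tested. In both libraries 7 were higher, among them Socs2, a feedback inhibitor of JAK and STAT signaling (log2 3.67 and 4.34), Cebpa, a transcription factor of early myeloid cells (3.46 and 4.37), and Egr2 (2.97 and 2.13). Among them were also the ubiquitin ligase gene Cbl (1.21 and 1.13), the adaptor Dok2 (1.03 and 2.78) and the survival gene Bcl2a1b (1.02 and 1.57). In both libraries 3 were lower, the kinase gene Pim1, a known STAT5 target (-2.22 and -1.68), Cebpb, a transcription factor of emergency granulopoiesis (-2.09 and -2.14), and Bcl2l1, which encodes the survival protein BCL-XL (-1.77 and -1.81).

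Of the receptors on that list, Il3ra, the alpha chain of the IL-3 receptor that shares the beta chains, was higher in monocytic than in granulocytic cells, at a low level. It held 19.0 and 8.80 CPM in monocytic cells and 4.86 and 1.59 CPM in granulocytic cells of the libraries labelled 4T1p and 4T1m. These rest on 81 and 59 monocytic and 4 and 5 granulocytic UMIs, too few for the limit of 200. The lymphocyte cluster labelled 4T1m held 6.50 CPM (0.788 to 23.5), which overlapped the monocytic level there (6.70 to 11.4). Il5ra had 1 UMI in each lineage. Between the libraries Jak2 was 2.38-fold higher and Cebpa 2.35-fold lower in monocytic cells labelled 4T1m, and Socs3 and Bcl2a1b were 2.01-fold and 2.24-fold lower in granulocytic cells, the only genes of the list with at least 200 UMIs past 2-fold. This was 1 of 30 genes in each direction in monocytic cells, where 7.16% of all genes tested were higher and 1.41% lower, and 0 higher and 2 lower of 21 in granulocytic cells, where the shares were 5.12% and 2.51%. Genes with fewer UMIs were also past 2-fold, Il3ra in monocytic cells among them. The 4 named with a fold were chosen after their values were seen. They were compared over whole lineages only, which the 2 libraries filled with clusters in unlike shares, and the part of cluster makeup was not tested.

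For each member the genes with the most similar pattern, up to 3, were found over the 17 groups of cluster and library with at least 50 cells, by Pearson correlation of log2(CPM + 10) among 6386 genes. For Csf1 they were Clec4d (r = 0.970), Rab7 (0.969) and Litaf (0.969), and for Csf3r Tarm1 (0.969), Gm5483 (0.964) and Trem1 (0.958), of which Clec4d and Trem1 encode innate immune receptors of myeloid cells. For Csf1r they were Igsf8 (0.985), Trf (0.964) and Tbxas1 (0.964). They were Sirpb1c (0.926), Fcer1g (0.924) and Cd300a (0.910) for Csf2ra and Hgsnat (0.927), Il1b (0.921) and C5ar1 (0.920) for Csf2rb, while Cited2 (0.892) and Vegfa (0.872) were the nearest named for Csf2rb2. Among the members Csf1 and Csf3r had r = 0.89, Csf1 and Csf1r -0.62, Csf2ra and Csf2rb 0.77, and Csf2rb and Csf2rb2 0.66. Csf2rb also had r = 0.79 with Csf3r and 0.72 with Csf1, while Csf2ra and Csf2rb2 were each nearest to Csf2rb among the members. These groups share libraries and lineages and are not independent, so the values describe a pattern only.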

How the data were processed

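The deposited matrices are untransformed UMI counts. The authors made them with Cell Ranger against mm10 (submitters' processing notes), and the matrix header names software version 3.1.0. Members and gene lists were chosen with earlier results of these data known. Barcodes were filtered as stated above. SCTransform (sctransform 0.4.2, Seurat 5.3.0, R 4.3.3) was run on 3000 variable genes without the 7 members, of which 3 had been among them, and cells were clustered by Louvain at resolution 0.8 on 11 principal components. Clusters were named from marker lists, with at least 3 markers detected in 25% of cells. Counts were summed per group and divided by the group total without Gm42418 and AY036118. Exact Poisson intervals were used for CPM, exact binomial (Clopper-Pearson) ones for shares, and ratio intervals came from the exact binomial share (scipy 1.17.1). A count of 0 was taken to allow 3 counts. A gene counted as tested with at least 200 UMIs in the 2 groups and as past the limit at a log2 ratio of 1. The genes named were the members, receptors and ligands of the pathway list, its genes past the limit in the same direction in both libraries, the 3 genes nearest to each member in pattern, and markers beside a result. Of the genes this rule names, 2 are not reported here. Doublets were kept, and removing the highest scores (scanpy 1.11.5, 13 and 44 cells) was an alternative. The scripts were tested on simulated data. With 1 library per group there is no p-value.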

Additional observations from a re-analysis of the deposited data

Results flagged for a closer look

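Csf2rb2 had the opposite sign in the 2 lineages when the library labelled 4T1m was set against that labelled 4T1p, with log2 ratios of 0.22 in monocytic and -0.60 in granulocytic cells, and this difference was not tested. The monocytic value was -0.05 with its clusters at equal weight, and only cluster 5 of them lay above 0. The barcodes outside the filter, which enter no comparison, also held UMIs of the members above the limit that a count of 0 allows. In the library labelled 4T1p these 513 barcodes held 54.2 CPM of Csf1, 1.79 CPM of Csf2, 348 CPM of Csf1r, 108 CPM of Csf2ra, 160 CPM of Csf2rb, 47.1 CPM of Csf2rb2 and 73.3 CPM of Csf3r. In that labelled 4T1m the 657 barcodes left out held 126 CPM of Csf1, 335 CPM of Csf1r, 69.9 CPM of Csf2ra, 182 CPM of Csf2rb, 50.2 CPM of Csf2rb2 and 131 CPM of Csf3r.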

How the results depend on the processing

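No paired analysis was possible because each group is 1 library and the labels carry no replicate numbers. Of 402 log2 ratios over whole lineages recomputed under the alternatives, 352 moved by less than their counting interval, 50 moved further, and 0 called differences changed direction. Past their interval also moved 82 of 392 lineage levels, 137 of 798 cluster levels and 82 of 168 shares of cells, with thinning among the alternatives for shares. The count of 1 member higher in monocytic cells of the library labelled 4T1m was 0 at a limit of 5% mitochondrial UMIs, without upper limits on genes and UMIs, with the mean over cells, and with equally weighted clusters (chosen after seeing the data); the log2 ratio of Csf1 ran from 0.40 to 1.69 over 16 alternatives. With the mean over cells, 4 members in place of 2 were lower in monocytic cells labelled 4T1p. For the pathway list, requiring a Ptprc UMI gave 2 genes lower between libraries in monocytic cells and 1 in granulocytic cells, in place of 1 and 2. A minimum of 50 UMIs gave 11 higher between lineages (4T1p, in place of 7), 5 lower (4T1m, in place of 3), 2 lower between libraries in monocytic cells, and 1 higher and 4 lower in granulocytic cells. A limit of 0.58 on the log2 scale gave 8 lower between lineages in each library, and between libraries 3 higher and 7 lower in monocytic and 1 higher in granulocytic cells. Totals without the 20 most abundant genes of each lineage moved the median lineage ratio of all genes by -0.41 and -0.43, and those without mitochondrial and ribosomal genes by 0.22 and 0.18. With 1 library per tumor, tumor and library cannot be told apart, and depth limits Csf2, whose lineage ratio labelled 4T1m ran from -4.41 to 2.23. The cause of these shifts was not tested.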
